A study of Mus musculus with 6 samples.

Results

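The genes described here are 10 cytotoxic granule and natural killer (NK) cell genes, Nkg7, Gzma, Gzmb, Gzmk, Prf1, Klrb1c, Klrd1, Klrk1, Eomes and Fasl, taken by their gene names on the array, which carries 14 probes for them. Of these 10 genes, 8 gave a signal well above background on at least 3 arrays and were tested, among 19194 genes tested in all. Gzmk and Eomes did not reach that level. Expression was measured on 6 one-colour Agilent arrays, 1 per mouse, in epididymal white adipose tissue, the visceral fat beside the testis. The 3 wild type mice and the 3 patDp/+ mice were males of 9 to 10 weeks on a C57BL/6 background. patDp/+ mice have inherited from the father an extra copy of the stretch of chromosome 7 that corresponds to the human region of the 15q11-13 duplication syndrome, and the series' title links the model to obesity of late onset. The question asked of the 10 genes was whether they followed Cd8a and Cd8b1, the genes of the chains of the CD8 co-receptor, which led an earlier analysis of these arrays.

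NK cells and cytotoxic T cells kill by releasing granules toward a target cell. The granules carry perforin, which opens a path through the target's membrane, and granzymes, the proteases that then start cell death inside it. Fas ligand on the killer cell's surface triggers death by a separate route. The CD8 co-receptor marks T cells that recognise MHC class I, whereas lectin-like receptors of the Klr family are typical of NK cells, and some are also found on activated CD8 T cells. The RNA came from whole tissue, so fewer cells of a type and less RNA per cell cannot be told apart.

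Values are log2 processed intensities minus the array's own 75th percentile, so that 0 is that percentile, and probes differ in brightness, so levels are compared between arrays and not between genes. The labels were checked on genes of the duplicated stretch. Snrpn ranged from -0.77 to -0.48 in wild type and from 0.43 to 0.77 in patDp/+, and Ndn, Herc2 and Mkrn3 also had groups that did not overlap, with patDp/+ higher. Nkg7 lies on chromosome 7 too, but outside the stretch, at mm9 start 50693482 for its tested probe against 63485047 for the Herc2 probe. All 6 adipocyte markers were measured, with a summed linear level of 1509 to 1765 times the 75th percentile in wild type and of 1486 to 1623 in patDp/+. None of the 4 epididymis markers on the array was well above background on 3 arrays. Negative control spots gave a mean net signal of 37.8 for patDp/+ replicate 1, against 30.7 to 33.1 elsewhere, and its part in the results was not tested. Each of 3 slides held 1 wild type and 1 patDp/+ array, and the differences within slides are given beside the pooled ones. Since the replicates are different mice with 1 array each, p-values reflect variation among animals together with that of labelling, arrays and slides.

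The sequence upstream of these genes was read from RefSeq promoters (GRCm38.p6, 250 bases before to 50 after each gene's start), which held 9 of the 10 genes. The letters AGGTGT (the core of T-box factors such as T-bet and Eomes) were in the promoters of 4 of the 9, Nkg7, Gzma, Gzmk and Prf1, and in 13.7% of 32851 promoters of the same length. The letters TGTGGT (the core of RUNX factors) were in 6 of the 9, Nkg7, Gzma, Gzmb, Prf1, Klrb1c and Klrk1, and in 16.8% of all promoters. Both were searched on both strands, among 10 patterns in all, and the 2 do not overlap in the promoters shown. The promoters of Eomes and Fasl held neither. Those of 3 granule genes are shown as examples that hold 2 matches each, in different combinations. Nkg7 and Gzma also held 1 of each and are not shown. Capitals mark AGGTGT in Gzmk, TGTGGT in Gzmb and 1 of each in Prf1, or their reverse complements ACACCT and ACCACA. The matches begin at -232 and -169 from the start of Gzmk (chr13:113180916-113181215, minus strand), at -93 and -34 from that of Gzmb (chr14:56262285-56262584, minus strand) and at -130 and -24 from that of Prf1 (chr10:61297586-61297885, plus strand). A match describes the letters in the window and not a bound site. Of the other patterns searched, the ETS cores CAGGAA and GGAAGT were in 5 and 4 of the 9, against 30.6% and 23.8% of all promoters. The AP-1 letters TGACTCA were in 2 of the 9 against 5.2%, and TATAAA in 0 against 13.6%.
Gzmk: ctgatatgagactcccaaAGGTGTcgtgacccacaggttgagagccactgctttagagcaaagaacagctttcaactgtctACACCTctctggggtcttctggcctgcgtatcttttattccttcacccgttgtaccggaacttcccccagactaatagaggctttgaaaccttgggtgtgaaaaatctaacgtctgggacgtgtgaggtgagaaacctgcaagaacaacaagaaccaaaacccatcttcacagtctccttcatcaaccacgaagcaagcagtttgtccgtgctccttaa
Gzmb: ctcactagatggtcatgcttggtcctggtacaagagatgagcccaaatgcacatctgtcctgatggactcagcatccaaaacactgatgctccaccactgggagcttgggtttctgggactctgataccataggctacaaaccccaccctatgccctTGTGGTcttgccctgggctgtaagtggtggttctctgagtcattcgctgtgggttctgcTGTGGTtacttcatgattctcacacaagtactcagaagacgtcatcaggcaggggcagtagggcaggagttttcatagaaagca
Prf1: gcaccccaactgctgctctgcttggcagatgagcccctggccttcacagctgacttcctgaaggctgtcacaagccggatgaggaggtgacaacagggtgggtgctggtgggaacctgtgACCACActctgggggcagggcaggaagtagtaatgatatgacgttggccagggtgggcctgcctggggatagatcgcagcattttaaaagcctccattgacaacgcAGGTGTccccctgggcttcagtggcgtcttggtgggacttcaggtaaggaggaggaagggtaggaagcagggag

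No cytotoxic or NK cell gene was called different between the fat of the genotypes. None of the 8 tested genes passed limma's test with Benjamini-Hochberg adjustment over all genes, where 0 of 19194 genes passed (0%) and the smallest adjusted p was 0.345. None reached an unadjusted p under 0.05 either, against 5.6% of all genes, made up of 2.68% higher and 2.92% lower in patDp/+. The log2 differences, patDp/+ minus wild type, ran from -0.25 for Klrb1c to 0.37 for Gzmb with a median of 0.17, against a median of -0.0087 over all genes. Of the 8, 6 lay above 0, against 47.3% of all genes. Groups did not overlap, with patDp/+ higher, for Klrd1 and Klrk1, that is for 2 of 8 against 5.26% of all genes, and with patDp/+ lower for 0 of 8 against 5.89%. The median was 0.039 without wild type replicate 3, on whose array all 8 genes lay below their own mean, and 0.073 without patDp/+ replicate 1, on whose array 7 of the 8 lay above it. Other settings raised it, to 0.26 without patDp/+ replicate 2 and to 0.38 with normexp background correction. The median over all genes with normexp was 0.074.

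**Figure D1:**
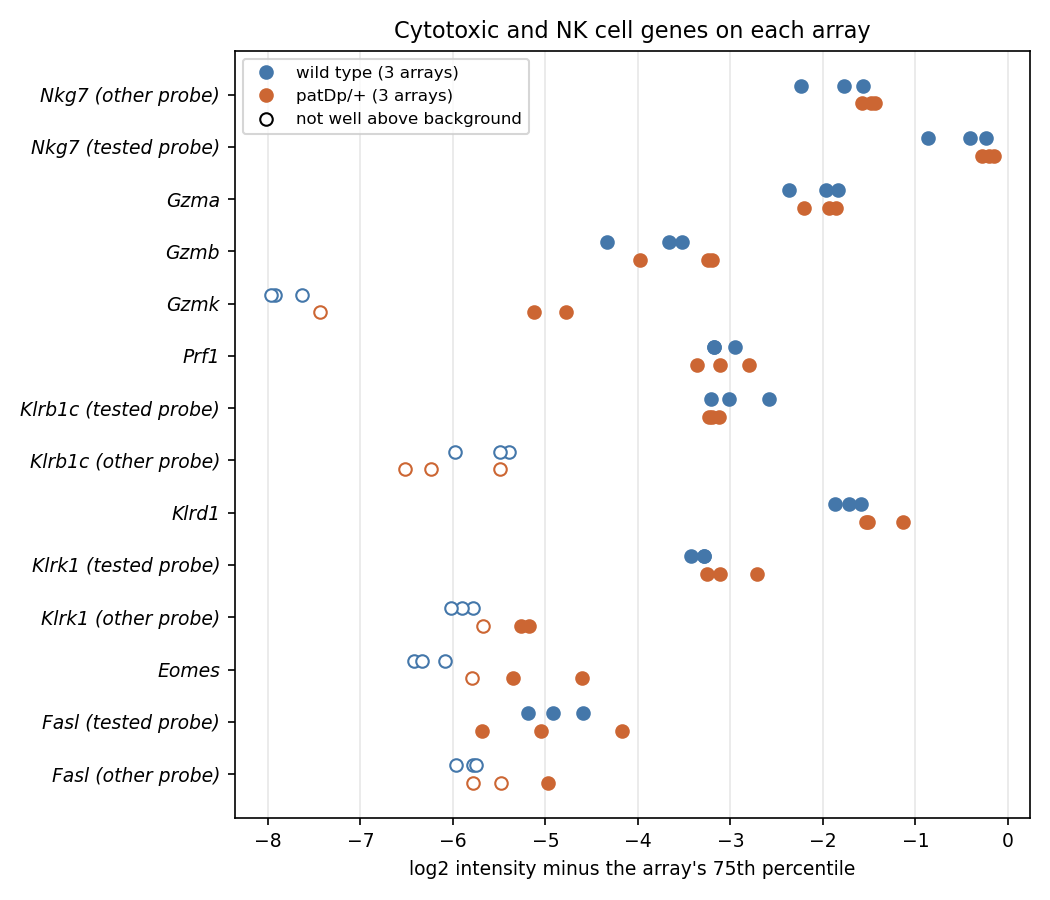
Log2 intensity minus the array's 75th percentile (x axis) for every probe of the 10 genes, with 1 point per array, wild type in blue and patDp/+ in orange; open points were not well above background. The groups of most tested probes intermix, those of Klrd1 and Klrk1 are adjacent without overlap, and for Gzmk and Eomes only patDp/+ replicates 1 and 2 have filled points.

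Among the granule proteins, perforin and granzyme A gave the smallest differences in the main analysis. That order changed with normexp background correction, which gave 0.37 for Prf1, 0.28 for Gzma and 0.25 for Nkg7. Prf1, the gene of the pore-forming perforin (probe at chr10:60766528-60766587, mm9), was at -2.95, -3.18 and -3.18 on the wild type arrays and at -2.80, -3.37 and -3.12 on the patDp/+ arrays. The patDp/+ arrays held both the highest and the lowest Prf1 value. The difference was 0.0067 ± 0.16 (SE, n = 3 per group; 95% interval -0.38 to 0.39; adjusted p = 0.998), and within slides 1, 2 and 3 it was 0.15, -0.19 and 0.058. Gzma encodes granzyme A, a tryptase of the granules (chr13:113885986-113886045). Its values were -1.97, -1.84 and -2.37 in wild type and -1.85, -2.20 and -1.93 in patDp/+. The lowest value belonged to wild type replicate 3 and the other arrays overlapped. The difference was 0.062 ± 0.17 (95% interval -0.35 to 0.47; adjusted p = 0.984), with 0.11, -0.36 and 0.44 within slides.

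Granzyme B, the caspase-activating protease of the granules, had the highest point estimate and a wide spread in both groups. Gzmb (chr14:56877916-56877975) was at -3.66, -3.53 and -4.34 in wild type and at -3.25, -3.20 and -3.98 in patDp/+. Both lowest values came from the arrays of slide 3. The difference was 0.37 ± 0.29 (1.29-fold; 95% interval -0.35 to 1.08; adjusted p = 0.932), while within slides it was 0.42, 0.33 and 0.35. With the slide as a block, Gzmb had an unadjusted p of 0.00957 and an adjusted p of 0.921 over all genes in limma. Without wild type replicate 3 the Gzmb difference was 0.12, and without patDp/+ replicate 3 it was 0.62. Nkg7 encodes a small membrane protein of cytotoxic granules. Its brighter probe (chr7:50693482-50693541) read -0.24, -0.41 and -0.86 in wild type and -0.16, -0.28 and -0.21 in patDp/+. Wild type replicate 3 was the low array, and the other 5 arrays overlapped. The difference was 0.29 ± 0.17 (1.22-fold; 95% interval -0.12 to 0.69; adjusted p = 0.905), with 0.086, 0.12 and 0.65 within slides, and it was 0.11 without wild type replicate 3. Without wild type replicate 1 the difference of the brighter probe was 0.42. The other Nkg7 probe (chr7:50693148-50693207), well above background on all arrays as well, gave 0.36.

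The gene of granzyme K, a tryptase typical of a subset of memory CD8 T cells, was seen on 2 of the 6 arrays. Its probe (chr13:113962100-113962159) was well above background on the arrays of patDp/+ replicates 1 and 2, with processed intensities of 28.9 and 35.7. It read 5.55 in patDp/+ replicate 3 and 3.64, 4.81 and 4.01 in wild type, all not well above background. On no array of the series was a probe below an intensity of 17.0 called well above background. The lowest such intensity was highest, at 27.2, on the array of patDp/+ replicate 3. The log2 difference of the measured Gzmk values was 2.06, but the deposited table gave 0.27 and normexp background correction 1.14. Eomes encodes the T-box factor of NK cells and memory CD8 T cells, and its probe (chr9:118394286-118394345) also passed on patDp/+ replicates 1 and 2 alone. The Eomes intensities were 41.5, 24.1 and 17.4 in patDp/+ and 10.3, 14.1 and 12.5 in wild type. Both genes were thus not well above background on 4 of 6 arrays, patDp/+ replicate 3 among them. Values there have no order, so the log2 differences of the measured values are not read as folds. The measured Eomes difference was 1.03, against 0.17 in the deposited table. With every probe fitted in limma and no filter on dim ones, Gzmk had an unadjusted p of 0.03 and Eomes of 0.0189, and both had an adjusted p of 0.988. Neither gene was well above background on any wild type array, so these p-values cannot decide whether the genotypes differed.

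Of the lectin-like receptors, Klrd1 and Klrk1 were higher on each patDp/+ array than on any wild type array, without passing the test, and Klrb1c was not. Klrd1 encodes CD94, the partner chain of the NKG2 receptors (chr6:129548391-129548450). It was at -1.72, -1.59 and -1.87 in wild type and at -1.14, -1.54 and -1.51 in patDp/+. The gap between the highest wild type and the lowest patDp/+ array was small, and patDp/+ replicate 1 stood above the rest. The difference was 0.33 ± 0.14 (1.26-fold; 95% interval -0.0052 to 0.67; adjusted p = 0.877), with 0.59, 0.053 and 0.36 within slides. Its unadjusted p was 0.0526, and it was under 0.05 in several alternative analyses. Without patDp/+ replicate 1 the Klrd1 difference was 0.20, and without patDp/+ replicate 2 it was 0.41.

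Klrk1 encodes NKG2D, the activating receptor for stress-induced ligands. Its tested probe, whose mapped positions span chr6:129562482-129562771, was at -3.29, -3.29 and -3.43 in wild type and at -2.71, -3.11 and -3.25 in patDp/+. The lowest patDp/+ array lay just above the wild type arrays. The difference was 0.31 ± 0.15 (1.24-fold; 95% interval -0.055 to 0.68; adjusted p = 0.881), with 0.58, 0.18 and 0.18 within slides, and it was 0.15 without patDp/+ replicate 1. Without patDp/+ replicate 3 the difference of the tested Klrk1 probe was 0.42. The other Klrk1 probe (chr6:129561864-129561923) was well above background on patDp/+ replicates 1 and 2 only. Klrb1c, which encodes the NK1.1 antigen by which NK cells are sorted in C57BL/6 mice (chr6:128728603-128728662), was at -2.59, -3.02 and -3.21 in wild type and at -3.12, -3.23 and -3.20 in patDp/+. Wild type replicate 1 was the high array and the others overlapped. The difference was -0.25 ± 0.16 (95% interval -0.65 to 0.15; adjusted p = 0.908), with -0.53, -0.21 and 0.0065 within slides, but normexp turned it to 0.25. The other Klrb1c probe (chr6:128734770-128734829) was well above background on 0 arrays.

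Fasl, the gene of Fas ligand, was close to the detection limit. Its brighter probe (chr1:163718079-163718138) was at -4.59, -4.92 and -5.19 in wild type and at -4.17, -5.69 and -5.04 in patDp/+. The patDp/+ arrays spanned the whole wild type range, from an intensity of 56.1 down to 19.1. The difference was -0.066 ± 0.39 (95% interval -1.01 to 0.88; adjusted p = 0.991), with 0.42, -0.77 and 0.15 within slides, and normexp gave 0.63. The other Fasl probe (chr1:163711300-163711359) was well above background on patDp/+ replicate 1 alone. An interval this wide does not show that Fasl was alike in both genotypes.

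The CD8 chains had larger differences. Cd8a (chr6:71327330-71327389) was at -4.55, -4.82 and -4.77 in wild type and at -3.37, -3.15 and -3.56 in patDp/+. Cd8b1 (chr6:71287068-71287126) was at -2.64, -2.84 and -2.84 in wild type and at -1.42, -1.43 and -1.95 in patDp/+. For both chains every patDp/+ array was clearly above every wild type array. The Cd8a difference was 1.35 ± 0.13 (2.55-fold; adjusted p = 0.345) and the Cd8b1 difference 1.18 ± 0.16 (2.26-fold; adjusted p = 0.38), and neither passed over all genes. Within slides they were 1.18, 1.67 and 1.21 for Cd8a and 1.22, 1.41 and 0.89 for Cd8b1. The deposited table gave 0.51 for Cd8a and 0.82 for Cd8b1. A dimmer Cd8a probe (chr6:71328911-71328970), well above background on 1 wild type and 2 patDp/+ arrays, gave 0.90. A further Cd8a probe (chr6:71323885-71323944) was well above background on patDp/+ replicate 1 alone. The tested Cd8a probe was itself dim in wild type, with intensities of 37.8, 33.8 and 36.9, near those of Fasl (36.7, 31.5 and 27.4).

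**Figure D2:**
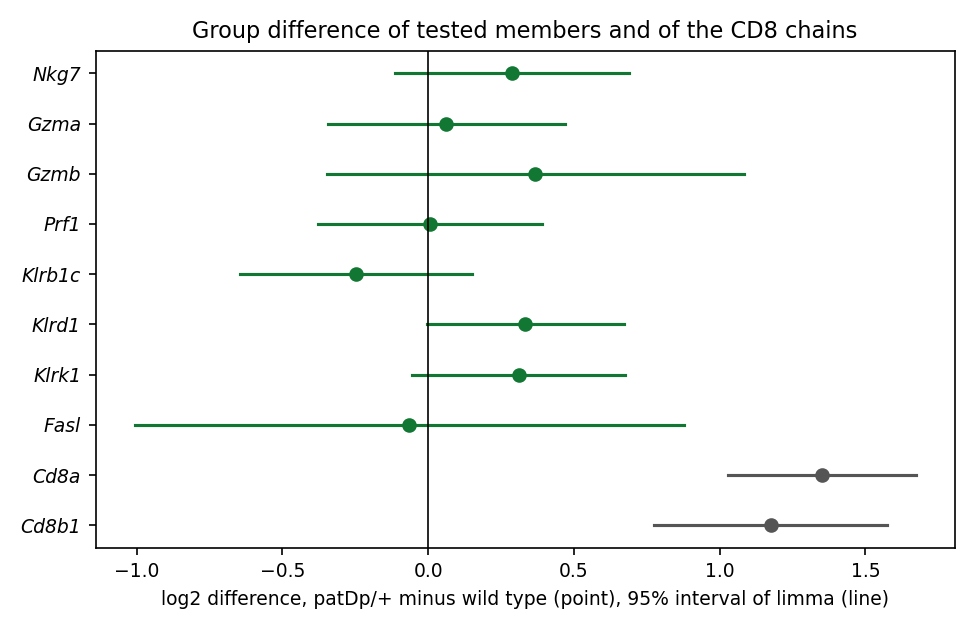
Log2 difference, patDp/+ minus wild type (x axis), of the 8 tested cytotoxic and NK cell genes (green) and of the CD8 chains (grey), with limma's 95% interval as a line. The intervals of all 8 genes include 0, whereas those of Cd8a and Cd8b1 begin at 1.03 and 0.78.

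Set against the CD8 chains directly, all 8 tested genes had smaller differences. For each array the mean of Cd8a and Cd8b1 was subtracted from the gene's value, and the groups were compared. The CD8 mean itself differed by 1.26, or 2.40-fold. Relative to it, the patDp/+ minus wild type difference was -0.90 ± 0.27 (SE, n = 3 per group) for Gzmb, the gene nearest to the CD8 chains, and -0.93 ± 0.20 for Klrd1, -0.95 ± 0.16 for Klrk1 and -0.98 ± 0.22 for Nkg7. It was -1.20 ± 0.27 for Gzma, -1.26 ± 0.23 for Prf1, -1.33 ± 0.49 for Fasl and -1.51 ± 0.19 for Klrb1c, the farthest, and the median was -1.09. The exact two-sided permutation p was 0.1 for each of the 8 genes, which is the smallest that 3 arrays against 3 can give, so this design cannot reach 0.05. With normexp background correction this exact p was 0.4 for Fasl and 0.1 for the other genes. The CD8 chains were taken as the reference because they led these same arrays, with ranks 1 and 15 by p among all genes, so values below theirs were largely fixed by that choice and are given as a description of size. The 8 comparisons also share the CD8 values and are not independent. The values thus describe differences of unequal size on these arrays and test no link to the CD8 chains. They do not show that the 8 genes did not change.

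**Figure D3:**
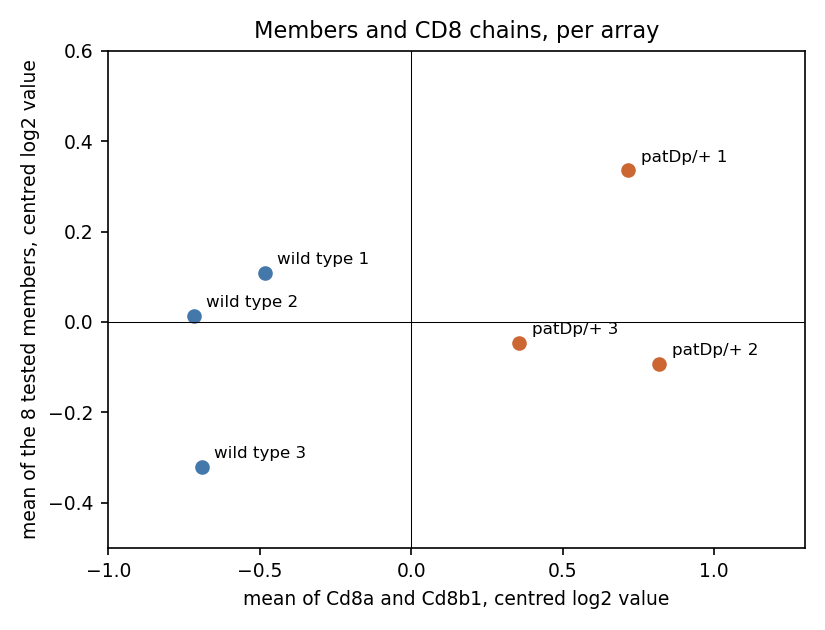
Mean of Cd8a and Cd8b1 (x axis) and mean of the 8 tested genes (y axis) on each array, both as log2 values centred over the 6 arrays. The arrays separate by genotype along the CD8 axis, while along the other axis patDp/+ replicate 1 is highest at 0.34, wild type replicate 3 lowest at -0.32, and patDp/+ replicates 2 and 3 lie below wild type replicates 1 and 2.

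The order of the arrays was also different for the cytotoxic genes and for the CD8 chains. The centred mean of the 8 genes was 0.11, 0.014 and -0.32 in wild type and 0.34, -0.092 and -0.046 in patDp/+. The centred CD8 mean was -0.48, -0.72 and -0.69 in wild type and 0.72, 0.82 and 0.36 in patDp/+. The array of patDp/+ replicate 2 thus had the highest CD8 mean and a cytotoxic mean below those of 2 wild type arrays. The array with the highest cytotoxic mean was also that with the highest negative control signal, 37.8. Each gene's Pearson correlation with the mean of the other 7, over 6 arrays, ran from 0.25 for Klrb1c to 0.76 for Gzma. These values describe 6 arrays that share slides and labelling. Over all genes with a symbol, 14558 in number, those most like the mean of the 8 were Sspo (0.985), Nek8 (0.979), Rnf121 (0.978), Wfdc6a (0.978) and H2-Aa (0.968), the gene of an MHC class II chain. In all, 63 genes (0.435%) had a correlation of 0.9 or more. Being the highest of so many values over only 6 arrays, these correlations do not show that the named genes track the cytotoxic genes. Cd8b1 ranked 2453 with 0.446 and Cd8a 3373 with 0.347.

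**Figure D4:**
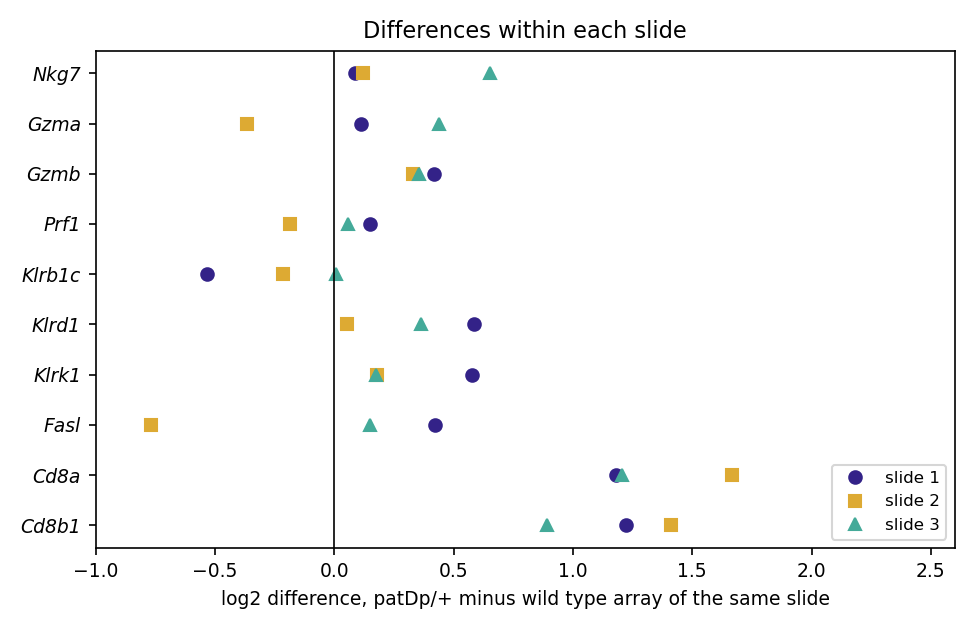
Log2 difference between the patDp/+ and the wild type array of the same slide (x axis) for the 8 tested genes and the CD8 chains, with 1 symbol per slide. Nkg7, Gzmb, Klrd1 and Klrk1 lie above 0 on all 3 slides, Gzma, Prf1, Klrb1c and Fasl on both sides of 0, and both CD8 chains at 0.89 or more.

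Genes around the cytotoxic pathway were described by list, and none of the listed genes passed limma's test over all genes. On the list of the T cell receptor and its co-receptors, 13 of 15 genes were tested, 11 lay above 0 and the median was 0.39. Cd8a and Cd8b1 are not on this list. At an unadjusted p under 0.05, 6 were higher, against 2.68% of all genes, and 1 was lower, against 2.92%. Cd3d, a chain of the T cell receptor complex, differed by 0.45 ± 0.13 (SE), the co-receptor gene Cd6 by 0.46 ± 0.14, the signalling adaptor gene Lat by 0.61 ± 0.20, and Thy1, a surface protein of T cells and stromal cells, by 0.46 ± 0.13. The value of Thy1 rests on 5 arrays, since the spot of patDp/+ replicate 1 was an outlier. The other 2 higher genes were the adhesion receptor gene Cd2 (0.39 ± 0.15) and the kinase gene Zap70 (0.37 ± 0.14). Cd3e and Cd3g, further chains of the complex, had 0.081 ± 0.087 and 0.55 ± 0.27. Cd2, Zap70, Cd3e and Cd3g were named after their values were seen.

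The machinery that loads and releases granules had a median difference near that of all genes. Of 14 listed genes 13 were tested, 8 lay above 0, and the median was 0.035. At an unadjusted p under 0.05, 2 of the 13 were higher, against 2.68% of all genes, and 0 were lower, against 2.92%. These were Unc13d, which primes granules for fusion (0.29 ± 0.11; within slides 0.56, 0.034 and 0.28), and Cst7, the inhibitor of the cathepsins that activate granzymes (0.49 ± 0.19; within slides 0.78, 0.69 and 0.010). Stx11, the syntaxin of granule fusion, had 0.41 ± 0.17 and Vamp7 0.14 ± 0.093. Groups did not overlap, with patDp/+ higher, for 3 of the 13 (Unc13d, Cst7 and Stx11), against 5.26% of all genes. With patDp/+ lower this held for 0 of the 13, against 5.89%. Of 7 further granzyme genes, Gzmm alone was tested, with -0.20 ± 0.16.

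Of 28 listed names of NK receptors and adaptors, 24 genes were on the array and 18 were tested. Their median was 0.12, 16 of the 18 lay above 0, against 47.3% of all genes, and 2 were higher at an unadjusted p under 0.05, against 2.68%. Klrb1b, an inhibitory relative of Klrb1c, was at -5.05, -5.05 and -5.03 in wild type and at -4.05, -4.27 and -4.64 in patDp/+. The wild type arrays were nearly equal and all patDp/+ arrays were above them. The Klrb1b probe was well above background on all 6 arrays. Its wild type mean of -5.04 lay below the -4.90 of Fasl, so it too was close to the detection limit. The Klrb1b difference was 0.72 ± 0.15 (adjusted p = 0.785), with 1.01, 0.77 and 0.39 within slides. The other was Cd244a, the gene of a receptor of the SLAM family, with 0.29 ± 0.091. Klrg1, a receptor of mature NK and CD8 T cells, had 0.45 ± 0.24, and the Fc receptor gene Fcgr3, also expressed by macrophages, had 0.25 ± 0.12. Of 11 listed transcription factor genes of NK and CD8 T cells 9 were tested, 4 lay above 0, 0 were under an unadjusted p of 0.05 and the median was -0.0057. Gata3 had -0.26 ± 0.11, Nfil3, which NK cell development needs, 0.29 ± 0.16, Ikzf2 -0.18 ± 0.14 and Ets1 -0.15 ± 0.12.

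Among effector cytokines and death ligands, 9 of 10 were tested, 7 lay above 0 and the median was 0.43. The chemokine genes Ccl4 (0.76 ± 0.27) and Ccl5 (0.54 ± 0.19) were higher at an unadjusted p under 0.05, that is 2 of 9 against 2.68% of all genes. Ccl4 differed by 1.24, 0.12 and 0.93 within slides, and Ccl5 by 0.48, 0.41 and 0.73. Tnfsf10, the gene of the death ligand TRAIL, was lower at that threshold (-0.54 ± 0.20), 1 of 9 against 2.92%, and Ccl3 had 0.71 ± 0.40. On the list of receptors and ligands of the killing pathways, 15 of 21 genes were tested, 9 lay above 0, 0 were under 0.05 and the median was 0.023. Tnfrsf10b, the TRAIL receptor gene, had 0.48 ± 0.21, Il18 0.15 ± 0.10, the adaptor gene Fadd 0.10 ± 0.078, and the NKG2D ligand gene Raet1e -0.19 ± 0.14.

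Markers of the cells that carry these genes were summed as linear levels in units of the 75th percentile. For NK cells, 7 of 9 markers were tested, 6 lay above 0, 0 were under an unadjusted p of 0.05, and the median difference was 0.062. Their sum was 0.79 to 1.03 in wild type and 0.89 to 1.18 in patDp/+, so the groups overlapped. For CD8 T cells, 5 of 6 were tested, all 5 lay above 0, and 3 were higher at a p under 0.05, against 2.68% of all genes. Their sum was 0.62 to 0.73 in wild type and 0.97 to 1.17 in patDp/+, with no overlap, as Cd8a and Cd8b1 are on that list. Gzma, Prf1, Klrb1c and Klrd1 are on the NK list as well as among the 10 genes. Cd4, Cd40lg and Foxp3 were not well above background on 3 arrays. Of 8 B cell markers 7 were tested and 0 lay above 0, with 3 lower at an unadjusted p under 0.05, against 2.92% of all genes, and a median of -0.60; their sum was 1.69 to 2.35 in wild type and 0.83 to 1.81 in patDp/+. All 5 tested macrophage markers lay above 0 with a median of 0.24, and their sum was 36.2 to 38.8 in wild type and 37.0 to 52.5 in patDp/+. Of 5 lymph node markers 3 were tested, with a median of -0.43 and 0 above 0, while Glycam1 and Madcam1 were not well above background on 3 arrays. The part of these cell types in the differences of the cytotoxic genes was not tested.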

How the data were processed

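RNA of epididymal fat was hybridised with Cy3 to 1 array per mouse. The authors deposited the scanner output, and per the file headers the processed intensity of each spot came from Feature Extraction 9.5.1.1 and is background-subtracted, with no scaling between arrays. A table of log2 values was deposited too (column medians of 7.58), whose columns correlated at 0.857 to 0.932 with their own array after genes were centred; the sources used here do not give its background correction. Tools named in the submitters' processing notes are limma 3.18.2 and Agilent Feature Extraction 9.5. The mean and local background intensities, as deposited, served the normexp alternative (offset 50).

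Outlier and control spots were left out, spots of a probe averaged, and the log2 processed intensity scaled to each array's 75th percentile over 41174 probes. Probes well above background on at least 3 of 6 arrays were kept (27975), and a gene took its brightest kept probe. Symbols were updated by accession through RefSeq's GRCm38.p6 table, which matched 27050 probes. Probe positions are those of the scanner files (mm9). Their place in exons or introns was not analysed here. The test was limma 3.58.1 in R 4.3.3, two-sided, with Benjamini-Hochberg adjustment, on 3 arrays per group, and was checked on simulated data. 89 genes were fitted on fewer than 6 arrays. Slides were read from the scanner files. The number of arrays limits the precision.

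The genes and lists were chosen with earlier results of these data known. Named were the 10 genes, the CD8 chains, up to 4 genes per list with the smallest unadjusted p, and the 5 symbols most correlated with the mean of the members well above background on all 6 arrays. The values of 1 listed gene are not reported here. Groups came from the sample titles; the source name calls every sample wild type and was not used. Alternatives were normexp, quantile normalization, the deposited table, another filter or none, the slide as a block, array weights, another variance model, 2 other ways of combining probes, and leaving out each array.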

Additional observations from a re-analysis of the deposited data

How the results depend on the processing

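No gene passed an adjusted p under 0.05 in limma under any of the 16 alternatives (smallest adjusted p in the main analysis 0.345); at an unadjusted p under 0.05 the count was 1075, and 755 to 1788 when single arrays were left out. The count of cytotoxic genes under an unadjusted p of 0.05 was 0 in the main analysis. With normexp it was 2 of 8 (Gzmb and Klrd1), against 831 of 19194 genes in all. With array weights it was 2 of 8 (Klrd1 and Klrk1), against 1603 of 19194. With no filter it was 2 of 10, against 1212 of 29182. Those 2 were Gzmk and Eomes, which were not well above background on any wild type array. Klrd1 alone was under 0.05 with quantile normalization (1119 of 19194 genes in all), the stricter filter (1065 of 17518) and the trended robust variance model (1150 of 19194). The count was 0 to 1 when single arrays were left out. Replicates of the same number share a slide, but same-slide deviations correlated at 0.11, -0.090 and -0.039, so the numbers did not pair the arrays by that measure; with the replicate block, 982 genes and 1 cytotoxic gene (Gzmb) were under 0.05, and 0 after adjustment.

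The median difference from the CD8 chains, -1.09, was -0.72 with normexp, -0.55 with the deposited table, and -1.24 to -0.91 when single arrays were left out. Signs turned for Klrb1c (0.25) and Fasl (0.63) with normexp, for Prf1 with array weights (-0.011), and when single arrays were left out for Gzma (-0.094 to 0.17), Prf1 (-0.14 to 0.14) and Fasl (-0.47 to 0.30); apart from the alternatives' own construction, the cause was not tested. Nkg7, Gzmb, Klrd1, Klrk1, Cd8a and Cd8b1 kept their direction in all 16. The signal over background limits Gzmk, Eomes and Fasl most.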
